A study of Caenorhabditis elegans with 4 samples.

Results

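The genes described here are the acyl-CoA synthetases (acs), the lipid-binding proteins (lbp) and the lysosomal lipases (lipl) of the nematode Caenorhabditis elegans. They were taken by public name, as every gene beginning with acs-, lbp- or lipl- except acs-1, and without regard to their values. This gave 37 of the 20535 genes in the files, of which 21 are acs, 9 lbp and 7 lipl genes. RNA from whole worms of strain VL1080, genotype mccc-1(ww4) IV with the reporter wwIs24[acdh-1p::GFP + unc-119(ed3)], was sequenced beside RNA from strain VL749, which carries the reporter alone, so the transgene is common to mutant and control. Leucine breakdown passes through methylcrotonyl-CoA carboxylase, and mccc-1 codes for part of that enzyme. There were 2 libraries per strain, labelled as biological replicates and made from at least 200 animals each, grown on NGM agar with Comamonas aquatica DA1877 and harvested as young adults 70 h after hatching at 20 °C, with a 20 h L1 arrest after bleaching in all libraries. The labels give no lesion for ww4 and no account of how the cultures were separated, so the p-values below rest on how far these libraries differ within a strain, and that may be technical in part.

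The 3 families handle fatty acids at successive points. Lysosomal acid lipases free fatty acids from stored lipid inside the lysosome and, in worms, several are switched on by fasting through the transcription factor HLH-30 and held down in fed animals by MXL-3. Lipid-binding proteins are small carriers that solubilise fatty acids and move them between compartments, some into the nucleus and some out of the cell. Acyl-CoA synthetases attach coenzyme A to a fatty acid, which commits it to oxidation, to membrane or storage lipid, or to signalling molecules.

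Values are in FPKM, fragments normalised to transcript length and to the mapped total. They summed to 741399 and 770579 in the mutant libraries and to 786436 and 780720 in the control libraries. The files state no total depth, but low values rose in steps, and by that spacing 1 FPKM of a 1 kb transcript stood for about 11.4 to 11.8 fragments in every library. mccc-1 RNA itself was at 100.43 and 100.33 FPKM in mutant worms, against 104.19 and 105.26 FPKM in control worms (limma adjusted p = 0.821). Sperm genes were lower in the mutant, and their values are given below beside acs genes that were also lower. In bulk RNA of whole animals, fewer cells of a type and less RNA per cell cannot be told apart.

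A single lipase gene, lipl-1, and 4 synthetase genes, acs-6, acs-10, acs-15 and acs-18, were lower in the mutant, and no gene of the 3 families was called higher. Of the 37 genes, 33 had at least 1 FPKM in at least 2 libraries and were tested, and the 4 others (acs-24, lipl-3, lipl-4 and lipl-6) stayed below that level. With lipl-1, which passed the filter only through its control libraries, the 5 called genes made up 15.2% of the 33 tested, against 8.36% of all 13091 genes tested (limma on log2(FPKM + 1), Benjamini-Hochberg adjusted p under 0.05 over all genes tested). Among all genes 7.3% were called lower and 1.06% higher. By family, 4 of 20 tested acs genes, 0 of 9 lbp genes and 1 of 4 lipl genes were called. At an unadjusted limma p under 0.05 there were 10 of 20 tested acs genes, 1 of 9 lbp genes and 2 of 4 lipl genes. Over all 13091 genes tested there were 2833. The median log2 fold changes were -0.09 for acs, -0.01 for lbp and -0.36 for lipl genes, against 0.05 for all tested genes. These calls depended on the filter for low values: with a minimum of 0.1 FPKM, or with none beyond a value above 0, 0 genes of the families passed the test, and 4 genes passed over the whole table. They also depended on control replicate 2, without which 0 of the 31 members then tested were called, and on mutant replicate 1, without which 1 was.

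**Figure D1:**
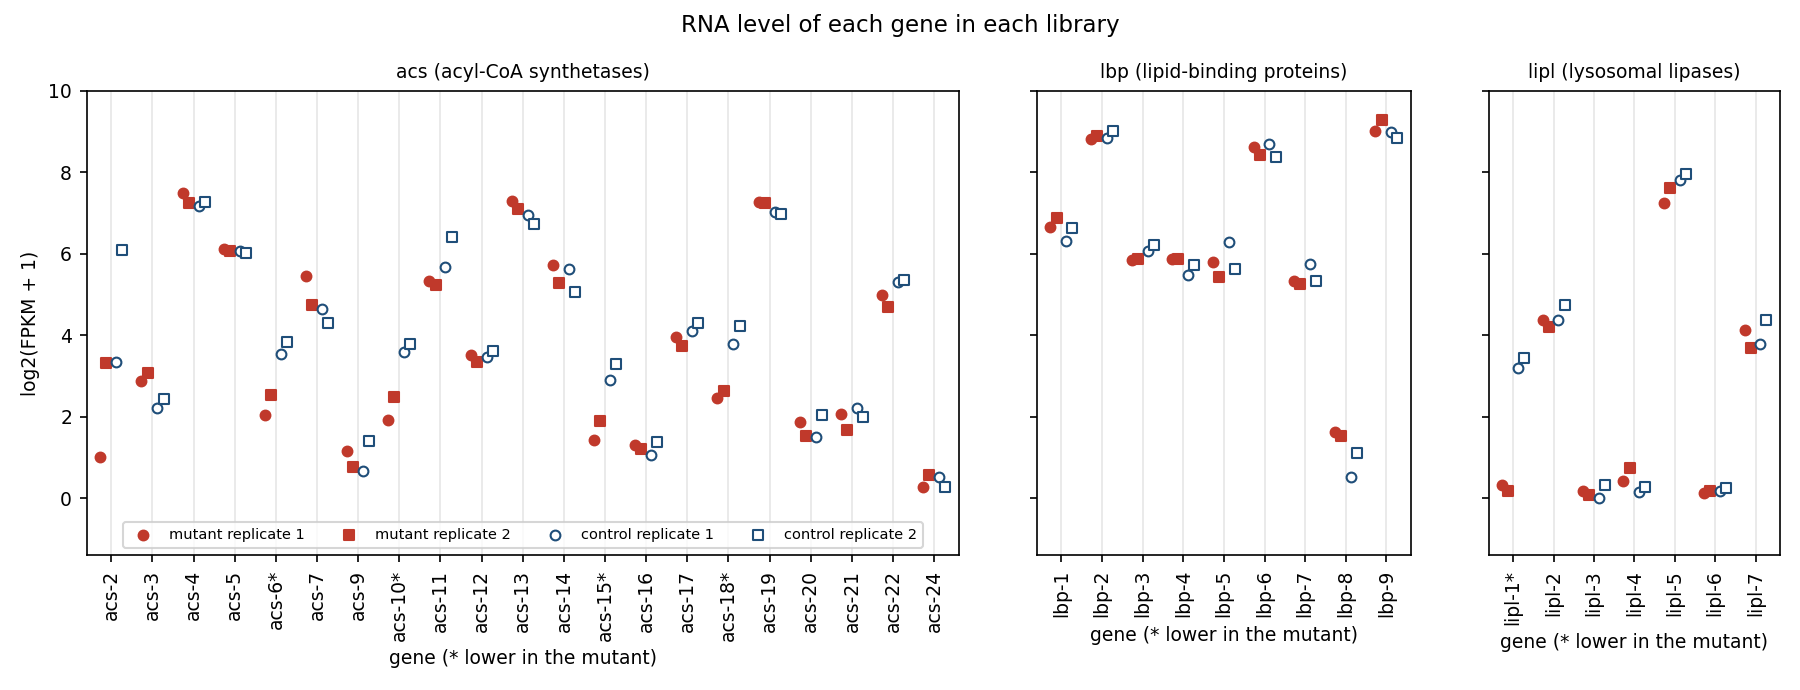
Level of each of the 37 genes in each library, as log2(FPKM + 1), with filled red symbols for the 2 mutant libraries and open blue symbols for the 2 control libraries. The 5 genes marked with an asterisk had both mutant libraries below both controls, and lbp-2, lbp-6 and lbp-9 stood highest in all libraries.

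Among the lipases, lipl-1 RNA was nearly absent from the mutant. lipl-1 (WBGene00010062, chromosome V, 12919986 to 12921692, forward strand, WBcel235 annotation) encodes a lysosomal lipase known to be induced by fasting. It was at 0.26 and 0.13 FPKM in the mutant libraries, against 8.21 and 9.91 FPKM in the control libraries. Both mutant libraries were near the limit of detection, at about 4 and 2 fragments by the spacing of low values, and both controls were well above it, at about 129 and 156 fragments. The means were 0.195 ± 0.0919 FPKM in the mutant and 9.06 ± 1.20 FPKM in the control (SD, n = 2 each), a level 46.5-fold lower, with an exact binomial 95% interval of 21.1 to 128 on the estimated fragments that covers counting error only. On the log2(FPKM + 1) scale the fold change was -3.07 (SE 0.25, limma adjusted p = 0.00591). Since lipl-1 entered the test only through its control libraries, it fell below the filter when either was left out and could not be tested then. Without mutant replicate 1 or 2 it was still called, at adjusted p of 0.0136 and 0.00681. Its neighbours on the chromosome were not called. nid-1, 2.76 kb before it, was at 39.83 and 38.54 FPKM in the mutant and at 39.83 and 51.77 FPKM in the control (log2 fold change -0.21, limma adjusted p = 0.532). dhrs-4, 0.92 kb after it, was at 14.39 and 11.51 FPKM in the mutant and at 16.52 and 13.94 FPKM in the control (-0.22, limma adjusted p = 0.593).

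The other lipases did not pass the test. lipl-5, by far the most abundant lipase RNA, was at 149.08 and 195.35 FPKM in the mutant and at 223.66 and 245.88 FPKM in the control, so that both mutant libraries lay below both controls (log2 fold change -0.46, SE 0.16, 95% interval -0.84 to -0.07, limma adjusted p = 0.158). lipl-2 was at 19.77 and 17.47 FPKM in the mutant and at 19.56 and 25.82 FPKM in the control, with overlapping libraries (-0.26, adjusted p = 0.50). lipl-7 was at 16.46 and 11.77 FPKM in the mutant and at 12.78 and 19.59 FPKM in the control, also overlapping (-0.17, adjusted p = 0.771). Because lipl-5, lipl-2 and lipl-7 held 99.6% of the summed lipase FPKM in each mutant library and 96.8% and 96.5% in the controls, the family's total followed lipl-5, at 186 and 226 FPKM in the mutant and at 264 and 302 FPKM in the control.

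The other 3 lipase genes were close to undetected in all libraries. lipl-3, a fasting-induced gene like lipl-1, was at 0.13 and 0.06 FPKM in the mutant and at 0 and 0.25 FPKM in the control, or between 0 and 4 fragments a library. lipl-4, whose product releases a lipid signal that extends lifespan when overexpressed, was at 0.34 and 0.66 FPKM in the mutant and at 0.11 and 0.22 FPKM in the control. Both mutant libraries lay above both controls, at about 6 and 13 fragments against 2 and 4, and the gene was below the filter and not tested. lipl-6 was at 0.10 and 0.14 FPKM in the mutant and at 0.14 and 0.19 FPKM in the control, or 2 to 4 fragments a library, and for lipl-6 no difference was detectable at this depth.

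The transcription factors known to control lipase genes were themselves not called. hlh-30, the worm relative of the lysosomal regulator TFEB, was at 31.0 and 31.88 FPKM in the mutant and at 33.23 and 24.16 FPKM in the control (log2 fold change 0.14, limma adjusted p = 0.721). mxl-3, its antagonist, was at 14.29 and 37.34 FPKM in the mutant and at 50.08 and 41.85 FPKM in the control (-0.95, SE 0.39, adjusted p = 0.225). mdl-1, a Mad-like partner in the same network, was at 12.66 and 26.84 FPKM in the mutant and at 47.42 and 42.88 FPKM in the control (-1.24, SE 0.32, adjusted p = 0.0644). For mxl-3 and mdl-1 the mutant libraries lay below the controls but more than 2-fold apart from each other. In the whole list of 19 regulators of lipid and lysosomal genes, 18 were tested and 0 were called by limma, with a median log2 fold change of 0.14. Among 26 other lysosomal genes, including cathepsins, glucosylceramidases and proton-pump subunits, 0 were called and the median was -0.04. asp-4, a cathepsin D-like protease gene, came nearest, at 103.45 and 100.38 FPKM in the mutant and at 142.88 and 140.9 FPKM in the control (-0.47, adjusted p = 0.0544). Both lists are too short for 0 calls to be told from the 8.36% called over all genes tested.

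No lipid-binding protein gene passed the test, and the summed level of the family overlapped between the strains. The 9 genes summed to 1659 and 1735 FPKM in the mutant and to 1679 and 1615 FPKM in the control. Of this sum, lbp-9, lbp-2 and lbp-6 made up 80.7% to 82.1% in every library. lbp-9 was at 511.09 and 616.89 FPKM in the mutant and at 501.2 and 457.38 FPKM in the control (log2 fold change 0.23, 95% interval -0.13 to 0.59, limma adjusted p = 0.458). lbp-2, whose product carries a secretion signal, was at 448.27 and 468.82 FPKM in the mutant and at 453.37 and 514.82 FPKM in the control (-0.08, interval -0.40 to 0.25, adjusted p = 0.811). lbp-6, an intracellular carrier, was at 391.22 and 338.52 FPKM in the mutant and at 408.23 and 330.96 FPKM in the control (-0.01, interval -0.39 to 0.36, adjusted p = 0.97). The intervals of these 3 genes all exclude a 2-fold change in either direction on the log2(FPKM + 1) scale.

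lbp-8, the carrier that takes a lysosomal lipid signal made by LIPL-4 to the nucleus, was the least abundant of the family. It was at 2.08 and 1.90 FPKM in the mutant, against 0.43 and 1.16 FPKM in the control, with mutant libraries above both controls. With about 12 and 12 fragments against 3 and 7, the ratio of means was 2.50 and the call was missed (log2 fold change 0.77, SE 0.30, adjusted p = 0.198). nhr-49 and nhr-80, nuclear receptors that act with LBP-8 in that pathway, had log2 fold changes of 0.13 and 0.37 and were not called (limma adjusted p = 0.674 and 0.379). The other 5 carriers, lbp-1, lbp-3, lbp-4, lbp-5 and lbp-7, stood between 37.14 and 115.92 FPKM in the mutant and between 39.14 and 97.84 FPKM in the control, with log2 fold changes from -0.34 for lbp-5 to 0.29 for lbp-1.

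Of these carriers, 7 lie near another member on the chromosome, and such neighbours had fold changes of like and of unlike sign. lbp-3, lbp-1 and lbp-2 form a row on chromosome X with gaps of 0.99 and 0.80 kb, and their log2 fold changes were -0.28, 0.29 and -0.08. lbp-6 and lbp-5 lie 1.89 kb apart on chromosome I, with fold changes of -0.01 and -0.34, and lbp-7 and lbp-8 lie 10.56 kb apart on chromosome V, with -0.24 and 0.77. None of these passed the test. Reads that related neighbours share could have been divided between them by the authors' quantification.

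**Figure D2:**
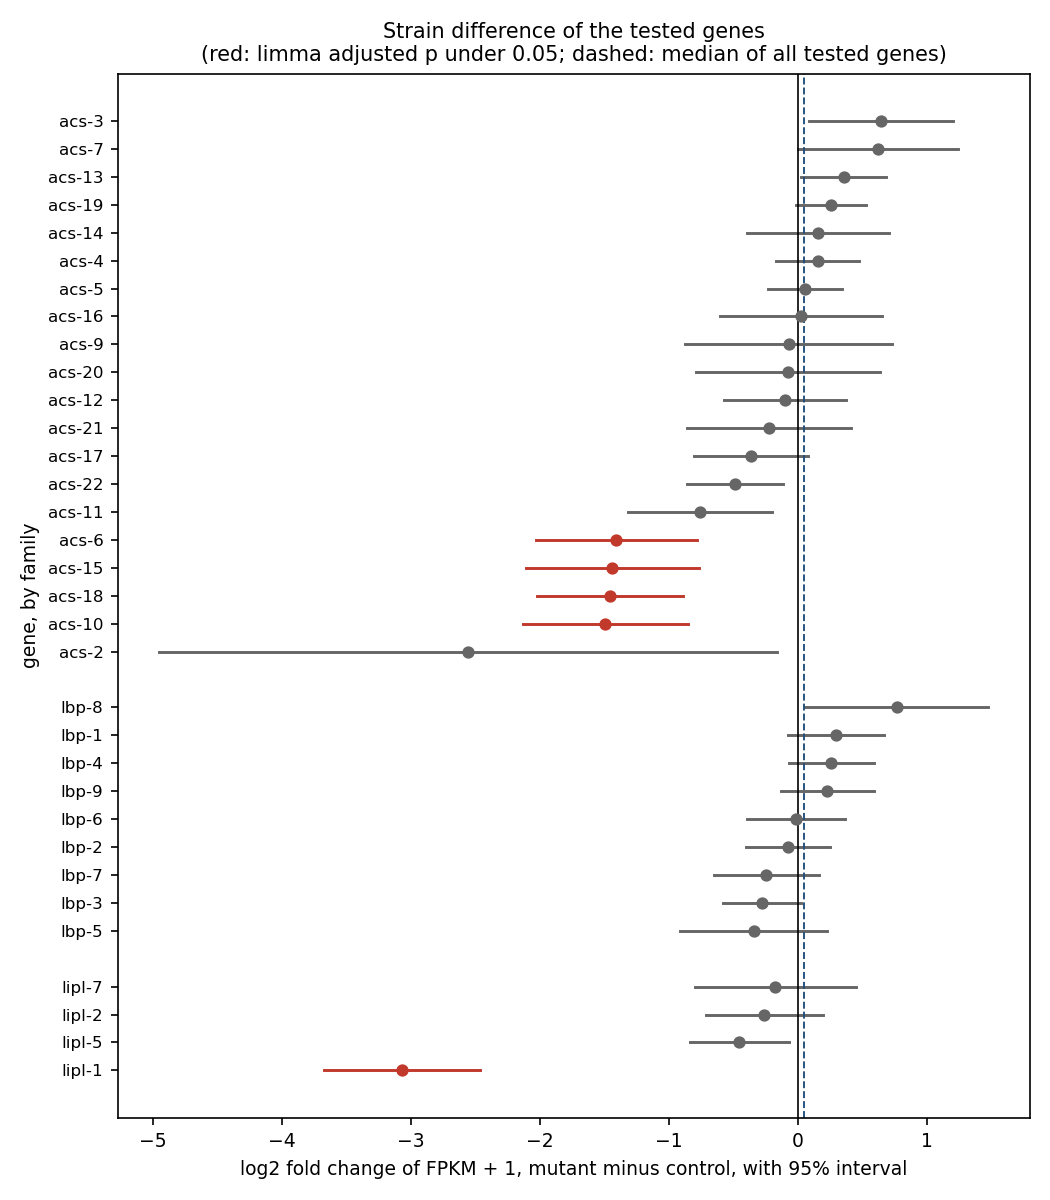
Log2 fold change of FPKM + 1, mutant minus control, for the 33 tested genes, grouped by family, with the 95% interval from limma as a bar. The 5 red genes had adjusted p under 0.05, and acs-2 has the widest interval, from -4.95 to -0.16.

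The most abundant acyl-CoA synthetase genes were not called, and 4 of low level were called lower in the mutant, each by 3.05 to 3.47 times. Other genes of low level were not called, such as acs-3 and acs-12, at log2 fold changes of 0.65 and -0.10. acs-4, acs-13 and acs-19 made up 63.0% and 63.3% of the summed acs FPKM in the mutant libraries and 55.6% and 48.7% in the controls. acs-4, a long-chain acyl-CoA synthetase gene, was at 178.88 and 150.44 FPKM in the mutant and at 142.65 and 152.37 FPKM in the control (log2 fold change 0.15, 95% interval -0.17 to 0.48, limma adjusted p = 0.584). acs-19, related to cytosolic acetyl-CoA synthetase, was at 152.07 and 150.5 FPKM in the mutant and at 129.17 and 123.81 FPKM in the control, above both controls but not called (0.26, interval -0.02 to 0.53, adjusted p = 0.261). acs-13, another long-chain synthetase gene, was at 155.78 and 135.22 FPKM in the mutant and at 122.03 and 105.16 FPKM in the control (0.35, interval 0.02 to 0.69, adjusted p = 0.201). acs-13 overlaps Y65B4BL.7 on the same strand, so some of its fragments may belong to that gene.

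The 4 synthetase genes called lower had ratios of means of 3.05 to 3.47. They were chosen by that call, and their 95% intervals together ran from -2.13 (acs-10) to -0.77 (acs-15) on the log2 scale. acs-10 (WBGene00007082, chromosome V, 14146499 to 14148839, forward strand) was at 2.76 and 4.59 FPKM in the mutant and at 11.01 and 12.87 FPKM in the control (lower by 3.25 times, log2 fold change -1.49, SE 0.27, limma adjusted p = 0.023). acs-6 (WBGene00022849, chromosome II, 7062030 to 7064846, forward strand) was at 3.10 and 4.74 FPKM in the mutant and at 10.55 and 13.33 FPKM in the control (lower by 3.05 times, -1.41, SE 0.26, adjusted p = 0.025). In each of the 4 genes both mutant libraries lay below both controls, as they did in 23.2% of all tested genes. acs-15 (WBGene00019920, chromosome II, 933018 to 936926, forward strand) was at 1.70 and 2.71 FPKM in the mutant and at 6.50 and 8.80 FPKM in the control (lower by 3.47 times, -1.44, SE 0.28, adjusted p = 0.0289). acs-18 (WBGene00011173, chromosome IV, 10310748 to 10313665, reverse strand) was at 4.54 and 5.2 FPKM in the mutant and at 12.69 and 17.82 FPKM in the control (lower by 3.13 times, -1.45, SE 0.24, adjusted p = 0.0172). Behind the mutant values stood about 41 to 134 fragments a library, and behind the control values about 163 to 463. Without mutant replicate 1 the adjusted p of the 4 genes was 0.0765 to 0.136, and without control replicate 2 it was 0.0694 to 0.117, so each call was lost there. Without mutant replicate 2 only that of acs-15 was lost, at 0.0506, and after quantile normalization likewise, at 0.0586.

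Sums of sperm genes moved in the same direction and by a like factor. Single tested sperm genes were lower by 2.06 times (spe-41) to 16.1 times (spe-38, at 0 and 0.13 FPKM in the mutant). Summed over the 4 synthetases, the level was 12.1 and 17.24 FPKM in the mutant and 40.75 and 52.82 FPKM in the control, 3.19-fold lower, a sum over genes chosen by their values. Major sperm protein genes, the 30 listed in the files, summed to 2819 and 4312 FPKM in the mutant and to 11034 and 10562 FPKM in the control, 3.03-fold lower, and 28 of 28 tested were called lower. Over all genes tested 7.3% were called lower. Reads that these related genes share could have been divided among them by the authors' quantification, so the 28 values may not be separate observations. Of 16 other sperm genes, 15 were tested, 11 were called lower and 4 were not called. Of those 15, 4 passed the filter only through the control libraries, of which fer-1 and peel-1 were called, so 9 of the other 11 were called lower. The sum of the 16 genes was 192 and 257 FPKM in the mutant and 648 and 727 FPKM in the control, 3.06-fold lower. In the mutant, replicate 2 stood above replicate 1 for all 4 synthetases, by 1.15 to 1.66 times, and for both sperm sums, by 1.53 and 1.34 times. In the control, replicate 2 was above replicate 1 for the 4 synthetases and the other sperm genes, and below it for the major sperm proteins, at 0.957 times. With 2 libraries per strain only 2 orders are possible, and the share of all genes with either order was not counted. The part of sperm content in the lower acs values was not tested.

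Marker sums of other tissues differed less. The 16 oocyte genes summed to 5731 and 5371 FPKM in the mutant and to 4276 and 3349 FPKM in the control, with 2 called higher, 0 lower and all 16 above both controls. Over all tested genes 1.06% were called higher, and 28.9% had both mutant libraries above both controls. Among 13 intestine genes in the files, 12 were tested, only cpr-1 was called, as lower, and the sum was 2422 and 2609 FPKM in the mutant and 2677 and 2038 FPKM in the control. Of 10 hypodermis genes, 6 were tested and only col-12 was called, as lower, with sums of 2934 and 3258 FPKM in the mutant and 3528 and 2860 FPKM in the control. The intestine and hypodermis sums rest largely on 1 gene each. asp-1 averaged 1456 FPKM of an intestine mean of 2515 FPKM in the mutant, and 1266 of 2357.5 FPKM in the control. col-19 averaged 3033 FPKM of a hypodermis mean of 3096 FPKM in the mutant, and 3104 of 3194 FPKM in the control. Less abundant genes went either way, such as elt-2 at a log2 fold change of 0.91 and mtl-2 at -0.87, neither called. The part of tissue content in the value of lipl-1 was not tested.

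**Figure D3:**
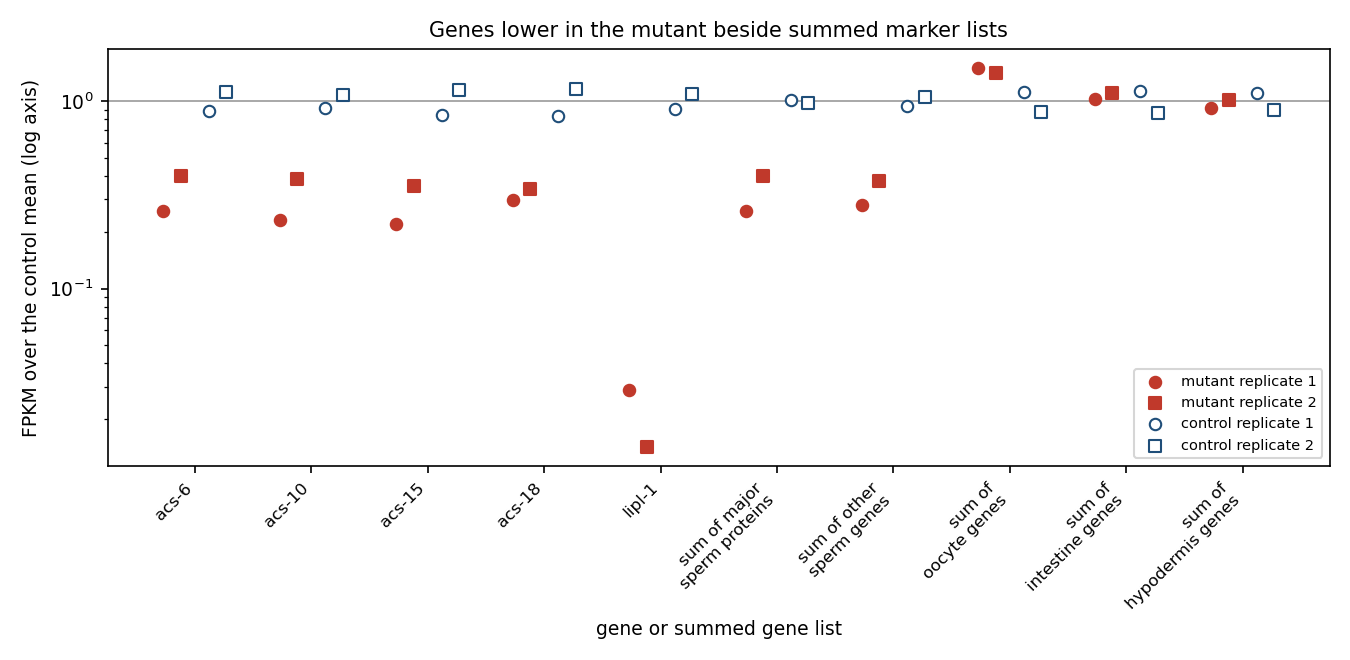
FPKM in each library over the control mean, on a log axis, for the 5 genes called lower and for the summed marker lists. The 4 acs genes and both sperm sums lie between 0.222 and 0.399 in the mutant libraries, lipl-1 lies at 0.0287 and 0.0143, and the oocyte, intestine and hypodermis sums lie between 0.919 and 1.5 there. Most of the intestine sum is asp-1, and nearly all of the hypodermis sum is col-19.

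acs-18 lies 0.424 Mb from mccc-1, the mutated gene, on a stretch with many lower genes. Within 0.5 Mb of mccc-1, 59 of 209 tested genes were called lower, or 28.2%, against 224 of 2094, or 10.7%, on the rest of chromosome IV. Of those 59 genes, 9 were major sperm protein genes, and 13 had names beginning with msp-, spe-, ssp-, sss-, gsp- or nspd-. Sperm genes with other names are not in that count. Among these is htas-1, 1 of the 16 other sperm genes, which lies within 0.5 Mb of mccc-1 and was called lower (limma adjusted p = 0.011). The gene after acs-18, R09E10.2, 3.90 kb away, was at 2.78 and 3.87 FPKM in the mutant and at 20.17 and 24.57 FPKM in the control (log2 fold change -2.44, SE 0.23, limma adjusted p = 0.00591). lipl-7 lies closer still to mccc-1, at 0.352 Mb, and was not called. For acs-6 and acs-10 the neighbours that were tested were not called by limma: cth-2 and him-14 beside acs-6 had log2 fold changes of -0.04 and 0.15, and par-1 beside acs-10 had one of 0.26. Whether linked sequence differences between the strains play a part was not tested.

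acs-2, the synthetase that feeds mitochondrial beta-oxidation and a classic target of NHR-49 in fasting, differed about as much between replicates as between strains. It was at 1.02 and 8.93 FPKM in the mutant and at 9.15 and 67.46 FPKM in the control. Replicate 2 was 8.75 times replicate 1 in the mutant and 7.37 times in the control, and mutant replicate 2 nearly equalled control replicate 1. Only 29 tested genes, or 0.222%, differed as much between the mutant libraries, and 18, or 0.137%, between the controls. The log2 fold change of -2.56 (SE 1.0, 95% interval -4.95 to -0.16) was not called (limma adjusted p = 0.201). With the replicate number added to the model as a block, acs-2 was called lower (limma adjusted p = 9.70e-06). The numbers are not said to mark a shared batch. It was called without control replicate 1, at -3.93 with adjusted p = 0.00782, and not without control replicate 2, at -1.18 with adjusted p = 0.606.

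acs-11 also turned on a control library. It was at 39.03 and 36.77 FPKM in the mutant and at 50.3 and 83.38 FPKM in the control, both mutant libraries below both controls (log2 fold change -0.76, SE 0.23, limma adjusted p = 0.111). Without control replicate 1 it was called lower, at -1.12 with adjusted p = 0.00756, and without control replicate 2 it was not, at -0.40 with adjusted p = 0.455.

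On the higher side, acs-3 and acs-7 had the largest differences of the family, and neither passed. acs-3, reported to limit fat uptake through NHR-25, was at 6.36 and 7.35 FPKM in the mutant and at 3.62 and 4.42 FPKM in the control (log2 fold change 0.65, SE 0.23, limma adjusted p = 0.167). acs-7, which activates side chains for indole-carbonyl ascaroside pheromones, was at 42.73 and 25.7 FPKM in the mutant and at 24.16 and 18.58 FPKM in the control (0.62, SE 0.26, adjusted p = 0.23). For acs-3 and acs-7 both mutant libraries lay above both controls, as they did in 28.9% of all tested genes. For acs-7 the lower mutant library was only just above the higher control. acs-7 overlaps C01G6.9 on the opposite strand by 9 nt.

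The remaining synthetases were not called. acs-22 and acs-20, related to fatty acid transport proteins and needed for the surface barrier of the cuticle, differed widely in level. acs-22 was at 30.83 and 24.89 FPKM in the mutant and at 38.61 and 39.74 FPKM in the control, below both controls (log2 fold change -0.48, SE 0.16, adjusted p = 0.126), and acs-20 was at 2.64 and 1.86 FPKM in the mutant and at 1.82 and 3.11 FPKM in the control, overlapping (-0.08, adjusted p = 0.917). acs-5 was at 68.75 and 66.04 FPKM in the mutant and at 66.46 and 63.38 FPKM in the control (0.05, interval -0.23 to 0.34, adjusted p = 0.857). acs-17 had a log2 fold change of -0.36 (adjusted p = 0.329) and lay below both controls. acs-9, acs-12, acs-14, acs-16 and acs-21 overlapped between strains or differed by at most 0.22 on the log2 scale. acs-24 was at 0.22 and 0.48 FPKM in the mutant and at 0.44 and 0.21 FPKM in the control and was not tested.

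Across the families, library order ran in both directions. Of the 33 tested genes, 8 had both mutant libraries above both controls and 12 had both below, and 13 overlapped. Among all tested genes the libraries did not overlap in 52.1%, with 28.9% higher and 23.2% lower in the mutant.

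**Figure D4:**
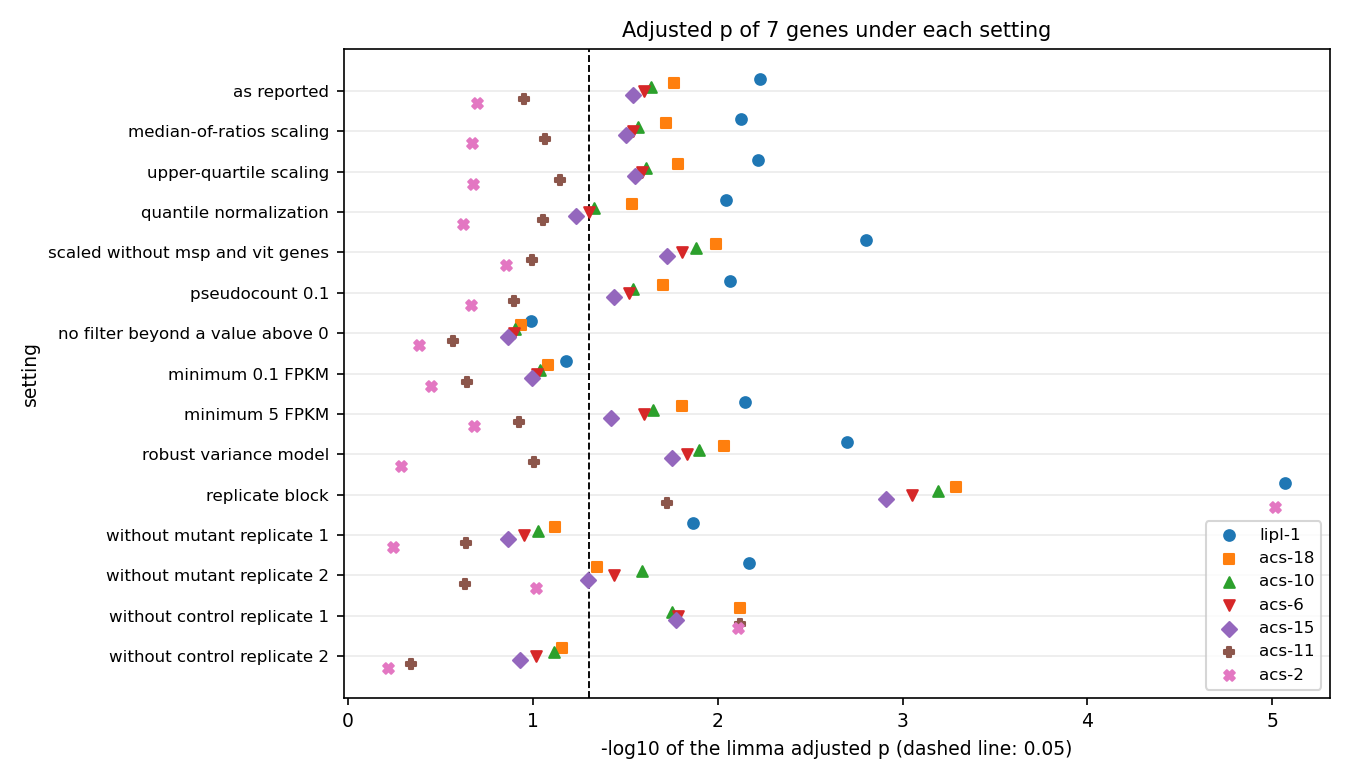
Minus log10 of the limma adjusted p for the 5 called genes, acs-11 and acs-2 under the reported setting and 14 alternatives, with a dashed line at 0.05. Points right of the line were called, and lipl-1 has no point where either control library was left out, since it could not be tested there.

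The counts for genes that act around these enzymes stand beside the 8.36% called over all tested genes, and the lists are too short to be told from that share. Of 7 tested genes for acyl-CoA-binding proteins, which buffer acyl-CoA in the cell, acbp-4 was called lower and 6 were not called, with a median log2 fold change of 0.20. acbp-4 was at 1.65 and 1.22 FPKM in the mutant and at 4.39 and 7.46 FPKM in the control (-1.48, SE 0.30, limma adjusted p = 0.0338). acbp-1, the most abundant of them, was at 230.83 and 280.35 FPKM in the mutant and at 296.54 and 267.41 FPKM in the control (-0.15, adjusted p = 0.637). Of 10 tested genes for other lipases and lipolysis, 0 were called by limma (median 0.12), among them the cytosolic fat lipase gene atgl-1 at 40.49 and 32.44 FPKM in the mutant and at 33.45 and 24.33 FPKM in the control. Of 18 genes for triglyceride and phospholipid assembly, 0 were called (median 0.15), and the perilipin gene plin-1 was at 219.75 and 212.17 FPKM in the mutant and at 162.77 and 179.38 FPKM in the control (0.34, adjusted p = 0.167). Nearest to a call in that list was acl-13, at 2.51 and 2.79 FPKM in the mutant and at 5.69 and 7.02 FPKM in the control (-1.01, limma adjusted p = 0.0535).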

How the data were processed

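RNA-seq of whole worms was deposited as 1 file per library, and per the file headers the values are FPKM per gene. Bowtie2 and RSEM were used, per the submitters' processing notes; versions, genome build, annotation and strandedness were not stated there or in the labels, and RSEM divides reads among similar genes. Names were matched by gene ID (18776 of 20535 genes named). Positions are from the WBcel235 annotation.

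The test was that of limma 3.58.1 (R 4.3.3) on log2(FPKM + 1) values (group only, mean-variance trend, 2 residual and 4.65 prior degrees of freedom), mutant minus control, two-sided, adjusted by Benjamini-Hochberg over the 13091 genes that reached 1 FPKM in 2 or more libraries. A pseudocount of 1 understates changes of low genes; folds are ratios of mean FPKM. Fragments behind a value were estimated from the spacing of low values of 950 to 1050 nt transcripts. The model was also run on simulated data, with noise drawn from its own fitted variances. That run cannot show whether those variances hold for these libraries. Genes given in full passed the test or had non-overlapping libraries and a log2 fold change of at least 0.5 in size; the 3 most abundant of each family are also given. Genes named from the lists, and R09E10.2, were picked after their values were seen. The families, lists and filter were chosen with earlier results of these data known. 14 alternatives were run. lipl-8 is not analysed here.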

Additional observations from a re-analysis of the deposited data

How the results depend on the processing

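The 5 called genes were recovered, as the same 5, with median-of-ratios scaling, upper-quartile scaling, scaling without msp and vit genes, a pseudocount of 0.1, a minimum of 5 FPKM and a robust variance model. The count of genes called over the whole table was 726 after quantile normalization and 4 both with a minimum of 0.1 FPKM and with no filter beyond a value above 0; with either of these 2 filters 0 genes of the families were called. Leaving out 1 library in turn gave 393 to 1324 genes and 0 to 6 members, where the lone library of a strain is assumed to vary like those of the other. The median of the acs family was 0.017 after quantile normalization and -0.23 with a minimum of 5 FPKM, and it ran from -0.26 to 0.029 when 1 library was left out, so its sign was not stable. The median of the lbp family was -0.048 with median-of-ratios scaling, -0.064 with upper-quartile scaling, 0.077 with quantile normalization and 0.024 with scaling without msp and vit genes, and it ran from -0.043 to 0.13 when 1 library was left out. That of the lipl family ran from -0.46 to -0.070, with lipl-1 below the filter at both ends. With the replicate number as a replicate block 1803 genes and 8 members were called, with acs-7, acs-2 and acs-11 added (acs-2 at limma adjusted p = 9.70e-06). The numbers are not said to mark a shared batch, and whether they do was not tested. Deviations of same-numbered libraries correlated at 0.176 over genes. With 2 libraries per strain the value for differently numbered ones, -0.176, is fixed as its mirror. Signs of genes that were never called turned round in some settings. After quantile normalization the values were -0.025 for acs-5, 0.18 for acs-9, 0.022 for acs-12, 0.15 for acs-20, 0.012 for acs-21 and 0.077 for lbp-6; acs-16 was at -0.0011 with upper-quartile scaling and lbp-6 at 0.024 without msp and vit genes. With 1 library left out, the values ran from -0.12 to 0.43 for acs-14, -0.13 to 0.19 for acs-16, -0.44 to 0.12 for acs-9, -0.35 to 0.19 for acs-20, -0.17 to 0.14 for lbp-6, -0.46 to 0.12 for lipl-7 and -0.17 to 0.016 for lbp-2. A count model was not run because the files hold FPKM. The cause of these dependences was not tested.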

Other observations

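Among genes of fat breakdown, the difference between replicates seen for acs-2 ran the other way in 2 lipase genes known to be induced by fasting, which were picked after their values were seen. fil-1 was at 6.54 and 1.61 FPKM in the mutant libraries and at 8.41 and 1.02 FPKM in the control libraries. fil-2 was at 2.37 and 0.42 FPKM in the mutant libraries and at 3.85 and 0.41 FPKM in the control libraries. In both strains replicate 1 was the higher library for fil-1 and fil-2 and the lower one for acs-2.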
